A study of Mus musculus with 20 samples.

Results

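Collagens are the main structural proteins of the extracellular matrix, and each collagen molecule is a triple helix of chains, every kind of which has its own gene. The genes described here are the collagen chain genes of the mouse: every row of the deposited gene table whose symbol has the form Col, a number, the letter a and a number, and whose mean level over all libraries was at least 0.1 on the counts-per-million scale (CPM). The rule found 42 genes among 44 collagen symbols in a table of 56258 genes. Col10a1 lay just inside the limit with a mean of 0.116 CPM, and the next, Col19a1, had 0.331. Col2a1 lay just outside it with 0.0751 CPM, followed by Col9a1 with 0.0237. All 42 genes passed the filter on low counts that left 29411 genes for testing.

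The libraries came from whole lymph nodes of mice aged 9 weeks that carry a null allele of Rag1 (Rag1-/-, strain B6.129S7-Rag1tm1Mom/J), a gene needed to assemble antigen receptors, so that the mice lack mature T and B cells. Every group shared this genotype and age, and no animal with a functional Rag1 gene was among them. There were 20 libraries of polyadenylated RNA, 4 from each of 5 node sites: the duodenal, jejunal, ileal and ceco-colonic nodes, which drain successive parts of the gut, and the inguinal node, a skin-draining node that served as the non-gut reference. Whether the 4 libraries per site stem from separate mice is not stated, so the p-values measure the spread between libraries only, and the nodes are whole organs, so fewer cells of a type and less RNA per cell cannot be told apart.

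In a lymph node, collagen fibres form the capsule and the core of the conduits, thin channels that reticular fibroblasts wrap with basement membrane and along which small molecules flow. Fibrillar collagens such as types I, III and V build the fibres, fibril-associated collagens sit on the fibre surface, type IV makes the sheet of the basement membrane beneath endothelium, muscle, fat and nerve, and type VI forms beaded filaments near cells. Chains leave the cell as triple helices after hydroxylation and folding in the endoplasmic reticulum, and are then cleaved and cross-linked outside it.

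Library totals ranged from 148.2 M to 304.6 M estimated counts. Rag1 RNA, which a disrupted gene can still make, lay between 1.98 and 3.43 CPM in the 20 libraries and so does not check the labels. No marker gene of the 11 cell types examined was at 0 in all libraries. Some libraries stood apart: the duodenal libraries 2 and 3 held 1372 and 1394 summed CPM of 7 smooth muscle markers against 304.8 to 668 in the other 18, and the duodenal libraries 1 and 2 held 26140 and 14970 summed CPM of 8 pancreatic acinar markers against at most 74.7 elsewhere. The sum of 8 adipocyte markers ran from 121 to 1602 CPM. These values are given again beside the genes they move with. For some genes, fits with the adipocyte or smooth muscle sum as a covariate, or without a pair of duodenal libraries, are also given. The sums differ between sites, so such fits cannot separate marker level from site. The part of the markers in those results was not tested in any other way.

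Type IV chain genes lie in pairs that are read in opposite directions, and 2 such pairs gave contrasting results. Their promoters are therefore shown as windows of 300 bases, 250 before to 50 after the annotated start, from RefSeq on mouse build GRCm38.p6, 5′ to 3′ on the strand of each gene. In the Col4a1 and Col4a2 windows the capitals mark the 78 bases that both windows hold as reverse complements of each other.
Col4a1, chr8:11312777-11313076, minus strand: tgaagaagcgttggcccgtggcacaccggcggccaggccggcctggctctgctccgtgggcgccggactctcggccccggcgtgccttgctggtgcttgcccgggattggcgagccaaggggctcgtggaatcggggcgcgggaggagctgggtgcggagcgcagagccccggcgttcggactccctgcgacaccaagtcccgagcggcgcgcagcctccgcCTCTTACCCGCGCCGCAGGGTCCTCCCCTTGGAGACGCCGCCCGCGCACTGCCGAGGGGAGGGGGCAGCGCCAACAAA
Col4a2, chr8:11312555-11312854, plus strand: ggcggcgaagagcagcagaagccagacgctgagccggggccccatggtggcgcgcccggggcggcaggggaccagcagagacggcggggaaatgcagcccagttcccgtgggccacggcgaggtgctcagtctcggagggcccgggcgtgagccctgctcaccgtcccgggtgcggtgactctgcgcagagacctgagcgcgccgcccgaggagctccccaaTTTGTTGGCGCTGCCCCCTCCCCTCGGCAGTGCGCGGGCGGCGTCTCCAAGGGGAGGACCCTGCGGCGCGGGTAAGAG
In the Col4a5 and Col4a6 windows the capitals mark matches to CCAAT or GGGCGG on either strand.
Col4a5, chrX:141475169-141475468, plus strand: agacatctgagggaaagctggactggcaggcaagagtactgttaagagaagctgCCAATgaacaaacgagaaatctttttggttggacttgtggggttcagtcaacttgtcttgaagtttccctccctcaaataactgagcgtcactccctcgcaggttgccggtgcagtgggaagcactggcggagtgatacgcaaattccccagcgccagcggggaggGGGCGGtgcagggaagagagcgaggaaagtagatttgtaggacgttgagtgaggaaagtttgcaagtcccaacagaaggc
Col4a6, chrX:141474027-141474326, minus strand: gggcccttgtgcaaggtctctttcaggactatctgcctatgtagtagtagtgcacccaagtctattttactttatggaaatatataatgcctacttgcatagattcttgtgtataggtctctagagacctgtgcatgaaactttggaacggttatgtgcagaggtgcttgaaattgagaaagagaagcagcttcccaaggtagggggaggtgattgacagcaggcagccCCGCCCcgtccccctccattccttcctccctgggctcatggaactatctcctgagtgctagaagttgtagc
The Col4a1 and Col4a2 starts were 21 bases apart, and their annotated 5′ ends overlap. Those of Col4a5 and Col4a6 were 1343 bases apart, so that these windows shared no base. The remaining type IV pair, Col4a3 and Col4a4, is not shown. The GC content was 74.0% for Col4a1 and 73.7% for Col4a2, against 52.7% for Col4a5, 48.3% for Col4a6 and a median of 52.7% over all 32851 windows of this length. RefSeq windows were matched for 34 of the 42 genes, 36 windows in all. On either strand GGGCGG was present in 63.9% of these windows and in 35.7% of all windows, CCAAT in 33.3% and 37.4%, and TATAAA in 13.9% and 13.6%. No motif of the 3 contains another, and a match is a string of letters, not a binding site. GGGCGG holds only G and C, and the GC content of the 36 windows as a set was not compared with that of all windows.

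The 42 genes spanned a wide range of levels. Their mean CPM was under 1 in 5 genes, from 1 to 10 in 16, from 10 to 100 in 11 and 100 or more in 10. Together they made up 3790 to 5440 CPM per library, with the inguinal libraries at 3791 to 4535 and the gut libraries at 4055 to 5437. Col1a1, Col1a2 and Col3a1, the chains of types I and III, contributed 47.3% to 54.3% of that sum in each library, and Col4a1 with Col4a2 contributed 15.4% to 20.9%. Per length, on the transcripts-per-million scale (TPM, summed over the transcripts of a gene), Col3a1 was highest with a mean of 275.8 TPM over 20 libraries, followed by Col1a2 with 206, Col1a1 with 132, Col4a1 with 110, Col6a1 with 80.5, Col6a2 with 74.4, Col4a2 with 69.0 and Col14a1 with 54.0 TPM. The gene level of Col26a1, 16.3 TPM, rests for 88.5% on a short transcript with a retained intron. The most abundant transcript was likewise not protein-coding for Col7a1, Col9a3, Col19a1 and Col25a1, so the levels of these 5 genes are uncertain as measures of chain-coding RNA.

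**Figure D1:**
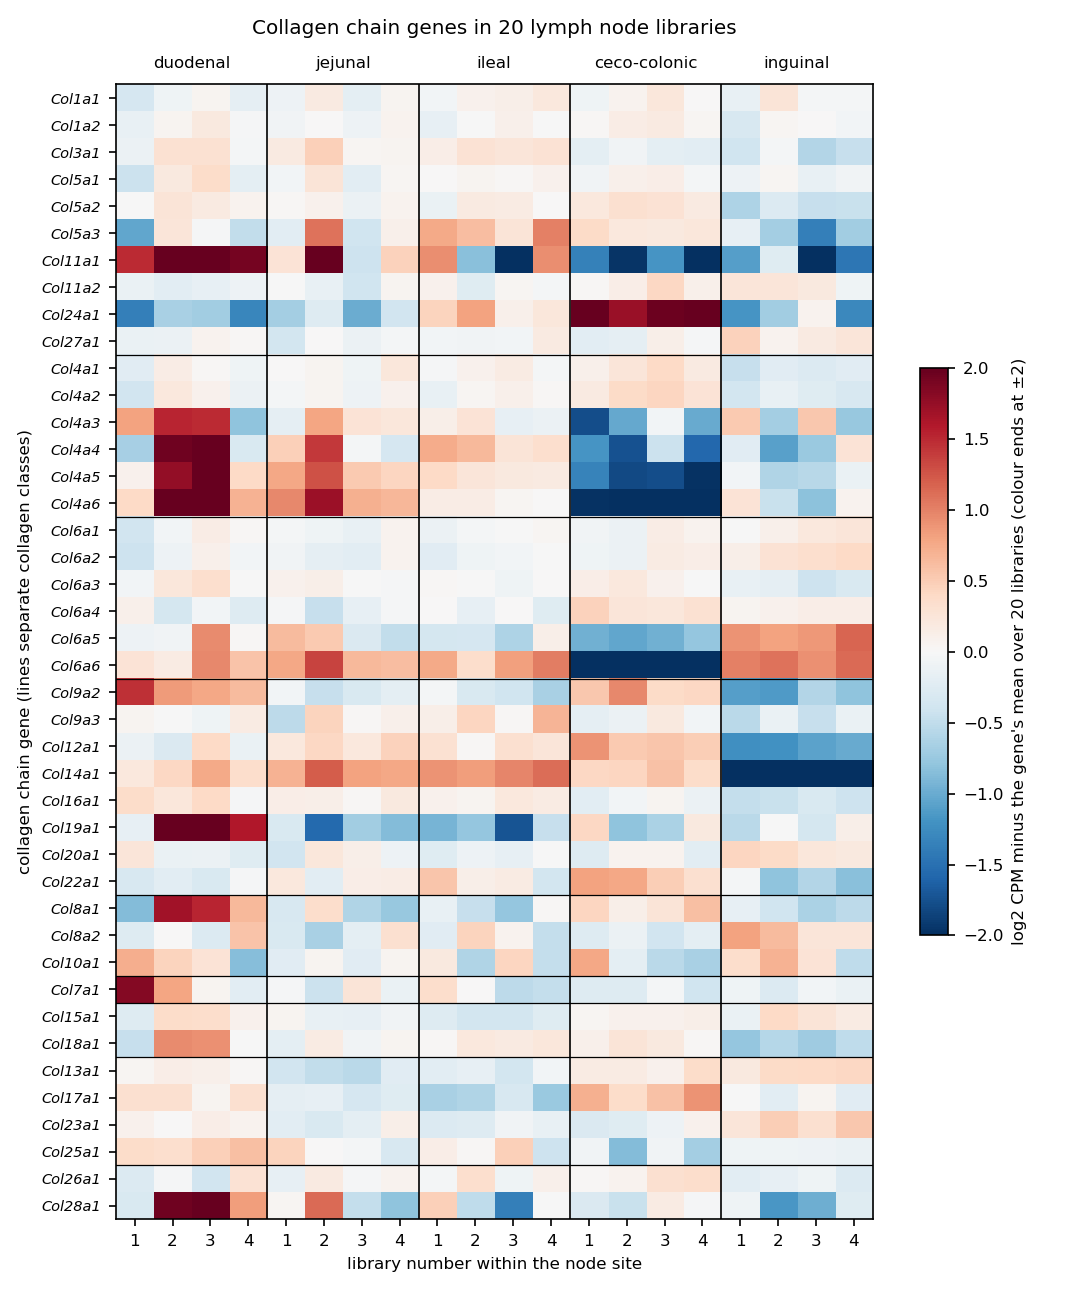
Level of each of the 42 collagen chain genes (rows, grouped by collagen class) in each of the 20 libraries (columns, 4 per node site), as log2 CPM minus the mean of the gene over all libraries; red is above and blue below that mean. Col14a1 and Col12a1 are low in all 4 inguinal libraries, Col6a6 and Col4a6 are low in all 4 ceco-colonic libraries, and the duodenal libraries 2 and 3 hold the highest levels of several genes of low abundance.

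Differences were tested with edgeR's quasi-likelihood test in 1 fit of all libraries and genes, with Benjamini-Hochberg adjustment over the 29411 genes; genes with an adjusted p under 0.05 are said to be called. Among the 5 sites, 33 of the 42 genes (78.6%) were called, where 35.7% of all genes tested were. Among the 4 gut sites, 23 (54.8%) were called against 21.3% of all genes. The genes that were called neither among the 5 sites nor in any main contrast were Col1a1, Col1a2, Col5a1, Col6a1, Col10a1 and Col26a1, and these include the 2 chains of type I.

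The first comparison set the mean of the 4 gut sites against the inguinal site. Of the 42 genes, 15 were higher in the gut-draining nodes, where 13.4% of all genes were, and 8 were lower, where 12.9% were. The median log2 difference of the 42 genes was 0.28, against 0.00 over all genes. Among the classes, fibril-associated chains had 6 of 8 genes higher and 1 lower, fibrillar chains 5 of 10 higher and 1 lower, type IV chains 2 of 6 higher and none lower, type VI chains 1 of 6 higher and 3 lower, and transmembrane collagens 2 of 4 lower and none higher. In 7 of the 42 genes (16.7%) the 16 gut libraries and the 4 inguinal libraries did not overlap, where this held for 9.53% of all genes: Col5a2, Col6a3, Col12a1, Col14a1, Col16a1 and Col18a1 were above and Col23a1 was below. Of the 23 calls, 18 held in every alternative fit and with every library left out in turn.

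**Figure D2:**
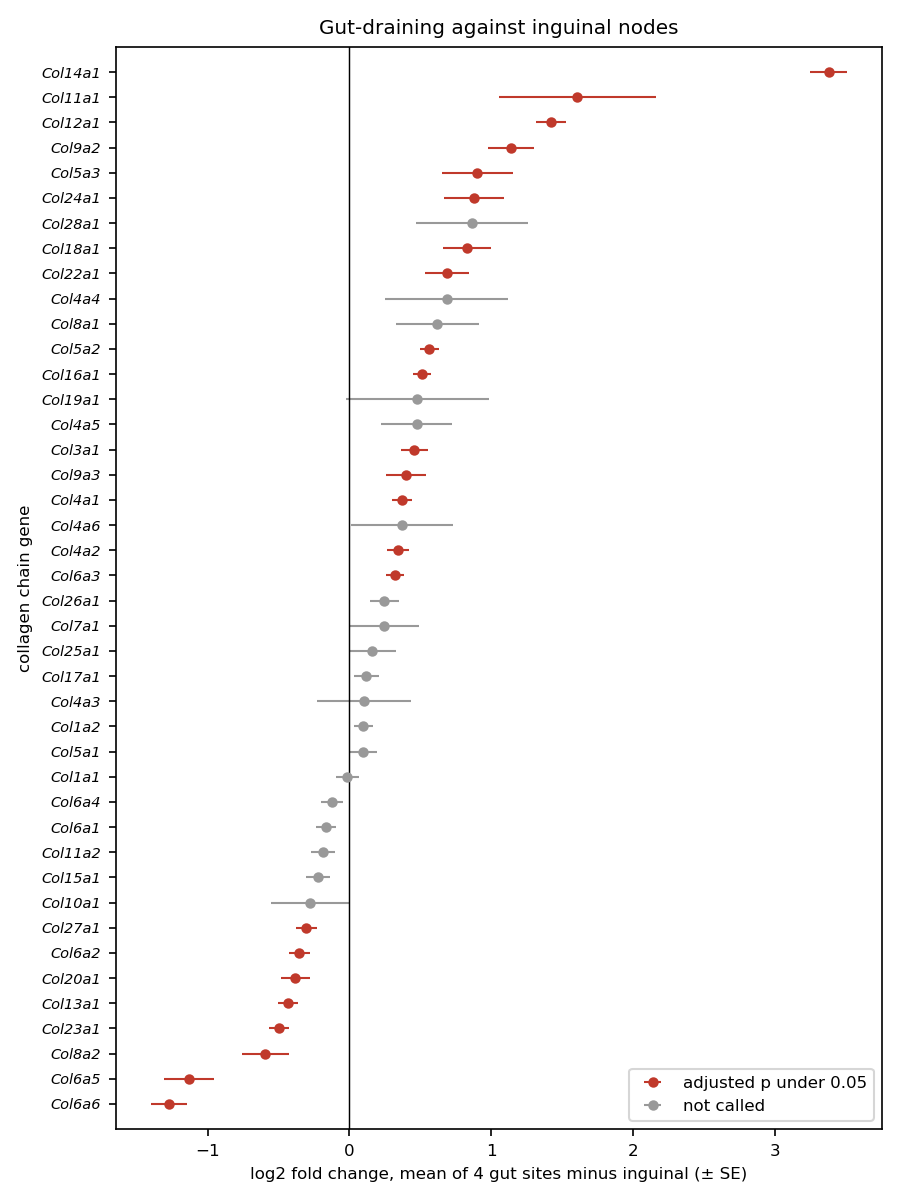
Log2 fold change of each of the 42 genes between the mean of the 4 gut sites and the inguinal site (x axis, ± SE from the edgeR fit of 20 libraries), with called genes in red and others in grey. Col14a1 stands at 3.38, Col12a1 at 1.42, and Col6a5 and Col6a6 at -1.13 and -1.27.

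Each gut site was also set against the same 4 inguinal libraries, so these 4 comparisons share their controls. The duodenal site had 26 genes called where 25.3% of all genes were, with 18 higher (13.2% of all genes) and 8 lower (12.1%). The jejunal site had 20 (20.9%), with 14 higher (11.4%) and 6 lower (9.54%). The ileal site had 21 (22.6%), with 14 higher (12.5%) and 7 lower (10.1%), and the ceco-colonic site 22 (21%), with 14 higher (10.6%) and 8 lower (10.3%). In this order of sites, the higher calls were 42.9%, 33.3%, 33.3% and 33.3% of the 42 genes, a greater share than of all genes. The lower calls were 19%, 14.3%, 16.7% and 19% of the 42 genes, also above the share of all genes but by less. The shares over all genes were not matched for level. Col4a1, Col5a2, Col6a3, Col9a2, Col12a1, Col14a1, Col16a1 and Col18a1 were higher at all 4 gut sites, and Col6a5 and Col23a1 were lower at all 4. Col4a5, Col4a6 and Col17a1 were higher at some gut sites and lower at others. No site differed from the inguinal node in 8 genes, and the other 21 were called at 1 to 3 sites in 1 direction.

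Fibril-associated collagens, which do not form fibres themselves but bind along them, carried the greatest gut-to-inguinal difference. Col14a1 (type XIV, which binds the surface of type I fibres) had 152, 175, 221 and 167 CPM in the duodenal libraries, 211, 302, 228 and 223 in the jejunal, 244, 234, 257 and 286 in the ileal, 175, 176, 197 and 169.8 in the ceco-colonic, and 21.9, 15.5, 20.2 and 23.5 in the inguinal libraries. Every gut library was thus above every inguinal library by a wide margin. The gut mean was 10.5-fold the inguinal mean, with a log2 difference of 3.38 ± 0.13 (SE, adjusted p = 1.33e-13), and the differences of single sites ran from 3.14 at the duodenal to 3.66 at the ileal site. Within the gut, Col14a1 was called among the 4 sites (adjusted p = 0.00606), the ileal mean of 255 CPM being above the duodenal 179 and the ceco-colonic 179.6. That call was lost with the adipocyte marker level as a covariate (adjusted p = 0.789), and the adipocyte sum was 589 to 995 CPM in the ileal, 130 to 395 in the duodenal and 128 to 322 in the ceco-colonic libraries.

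Col12a1 (type XII, a relative of type XIV that links fibres to other matrix) was also without overlap between gut and inguinal libraries, by a smaller fold and with another order among gut sites. Its levels were 63.3, 56.1, 89.8 and 62.3 CPM in the duodenal, 79.3, 90.8, 79.5 and 93.6 in the jejunal, 84.9, 69.6, 85.4 and 80.7 in the ileal, 127, 98.2, 101 and 96.4 in the ceco-colonic, and 29.3, 29.7, 32.5 and 33.9 in the inguinal libraries. The lowest gut library stood well above the highest inguinal one, and the 4 ceco-colonic libraries were the highest of all. The log2 difference from the inguinal node was 1.42 ± 0.11 (SE, adjusted p = 2.28e-09), and the small intestinal sites were lower than the ceco-colonic site by -0.44 ± 0.10 (SE, adjusted p = 0.0024). Col16a1 (type XVI) was moderately higher in gut nodes, with gut libraries from 44.2 to 67.5 CPM (median 54.9) and inguinal libraries of 36.8, 37.6, 41.4 and 38.5, a log2 difference of 0.51 ± 0.06 (SE, adjusted p = 3.33e-06).

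The remaining fibril-associated chains were of low abundance. Col9a2, a chain of the cartilage collagen type IX, had inguinal levels of 0.631, 0.612, 0.897 and 0.769 CPM, duodenal levels of 3.73, 2.43, 2.30 and 2.10, ceco-colonic levels of 1.95, 2.63, 1.77 and 1.80, and jejunal and ileal levels of 0.863 to 1.31. Its log2 difference between gut and inguinal nodes was 1.14 ± 0.16 (SE, adjusted p = 1.54e-05), and the duodenal site exceeded the jejunal by 1.21 and the ileal by 1.30 on the log2 scale (adjusted p = 0.00396 and 0.00036). Its difference between small intestinal and ceco-colonic nodes, -0.46 (adjusted p = 0.0377), was lost in 12 of 20 fits without 1 library. Col22a1 (type XXII) was highest in the ceco-colonic libraries, at 4.06, 3.96, 3.26 and 2.89 CPM against 1.30 to 2.25 in the inguinal and 1.80 to 3.41 in the small intestinal libraries. It differed by 0.69 between gut and inguinal nodes (adjusted p = 0.00184) and by -0.60 between small intestinal and ceco-colonic nodes (adjusted p = 0.00622). Col20a1 (type XX) went the other way, with gut libraries from 2.58 to 4 CPM and inguinal libraries of 4.54, 4.40, 3.93 and 3.86, a log2 difference of -0.38 ± 0.10 (SE, adjusted p = 0.00685). Col9a3 passed with an adjusted p of 0.0405 in the gut comparison and was lost without any 1 of 10 libraries.

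The 2 chains of type I, the main fibre collagen, gave no call. Col1a1 had 449, 529.5, 587 and 496 CPM in the duodenal, 524, 641, 492 and 586 in the jejunal, 541, 601, 614 and 654 in the ileal, 530.5, 591, 658 and 566 in the ceco-colonic, and 511, 676, 550.3 and 547 in the inguinal libraries. Col1a2 lay between 682 and 880.0 CPM in the gut libraries (median 776) and at 614, 785, 771 and 739 in the inguinal libraries. All sites overlapped for both genes, with gut to inguinal log2 differences of -0.02 ± 0.08 for Col1a1 and 0.10 ± 0.07 for Col1a2 (SE, adjusted p = 0.921 and 0.316).

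Col3a1, the chain of type III and of the reticular fibres of lymphoid tissue, differed where type I was not called. It had 947, 1269, 1277 and 1007 CPM in the duodenal, 1167, 1435, 1061 and 1070.5 in the jejunal, 1133, 1264, 1217 and 1262 in the ileal, 906, 987, 905 and 892 in the ceco-colonic, and 783, 1004, 688 and 749 in the inguinal libraries. Inguinal library 2 overlapped the ceco-colonic and duodenal libraries, while the jejunal and ileal libraries were all above the inguinal ones. The gut mean was 1.38-fold the inguinal mean (log2 difference 0.46 ± 0.09, SE, adjusted p = 0.00096). Small intestinal nodes exceeded the ceco-colonic node by 0.35 ± 0.10 (SE, adjusted p = 0.0156), which became 0.24 with the adipocyte covariate (adjusted p = 0.279) and 0.34 without ceco-colonic library 4 (adjusted p = 0.0570).

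Type V, which nucleates type I fibres, split between its chains. Col5a2 had gut levels from 94.97 to 129 CPM (median 113) and inguinal levels of 67.5, 85.4, 75.1 and 76.3, without overlap (log2 difference 0.56 ± 0.07, SE, adjusted p = 1.31e-06). Col5a1 was at 65.1 to 112 CPM in gut libraries (median 89.4) and 81.8, 89.5, 79.1 and 83.5 in inguinal libraries, and was not called (0.09 ± 0.10, SE, adjusted p = 0.549). Col5a3 spread more, from 7.42 to 32.6 CPM in gut libraries (median 17.8) against 13.7, 9.58, 5.95 and 9.45 in inguinal libraries. Its difference of 0.90 ± 0.25 (SE, adjusted p = 0.00997) became 0.36 with the adipocyte covariate (adjusted p = 0.143) and 0.72 without inguinal library 3 (adjusted p = 0.0595). The gene was highest in jejunal library 2, with 32.6 CPM, which also had the highest adipocyte sum, 1602 CPM.

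Col24a1, a minor fibrillar chain, separated the ceco-colonic node from all others. Its levels were 0.589, 0.969, 0.941 and 0.615 CPM in the duodenal, 0.956, 1.28, 0.763 and 1.18 in the jejunal, 2.08, 2.68, 1.63 and 1.79 in the ileal, 6.54, 5.06, 5.93 and 6.25 in the ceco-colonic, and 0.676, 0.944, 1.61 and 0.624 in the inguinal libraries. The ceco-colonic libraries did not overlap any other, and the ileal libraries lay between them and the rest. The ceco-colonic mean was 4.61-fold the small intestinal mean (log2 difference -2.33 ± 0.19 for small intestinal minus ceco-colonic, SE, adjusted p = 2.69e-08). The ileal site was above the duodenal by 1.39 on the log2 scale (adjusted p = 0.0018) and below the ceco-colonic by 1.54 (adjusted p = 0.000256), while duodenal and jejunal nodes were called against neither each other nor the inguinal node.

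Col27a1, another minor fibrillar chain, was the fibrillar gene that was lower in gut nodes, with 48.6 to 71.0 CPM (median 60.7) against 86.8, 66.3, 71.4 and 74.6 in the inguinal libraries (log2 difference -0.30 ± 0.07, SE, adjusted p = 0.00353). The type XI chains are minor partners of fibres. Col11a2 was not called between gut and inguinal nodes (-0.19, adjusted p = 0.112), and its difference between small intestinal and ceco-colonic nodes, -0.27 (adjusted p = 0.0311), was lost in 6 of 20 fits without 1 library. The markers of fibroblasts and reticular stroma did not move 1 way with these genes: 3 of 8 were higher and 3 lower in gut nodes, and their sum was 608 to 944 CPM in gut and 637 to 768 CPM in inguinal libraries.

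**Figure D3:**
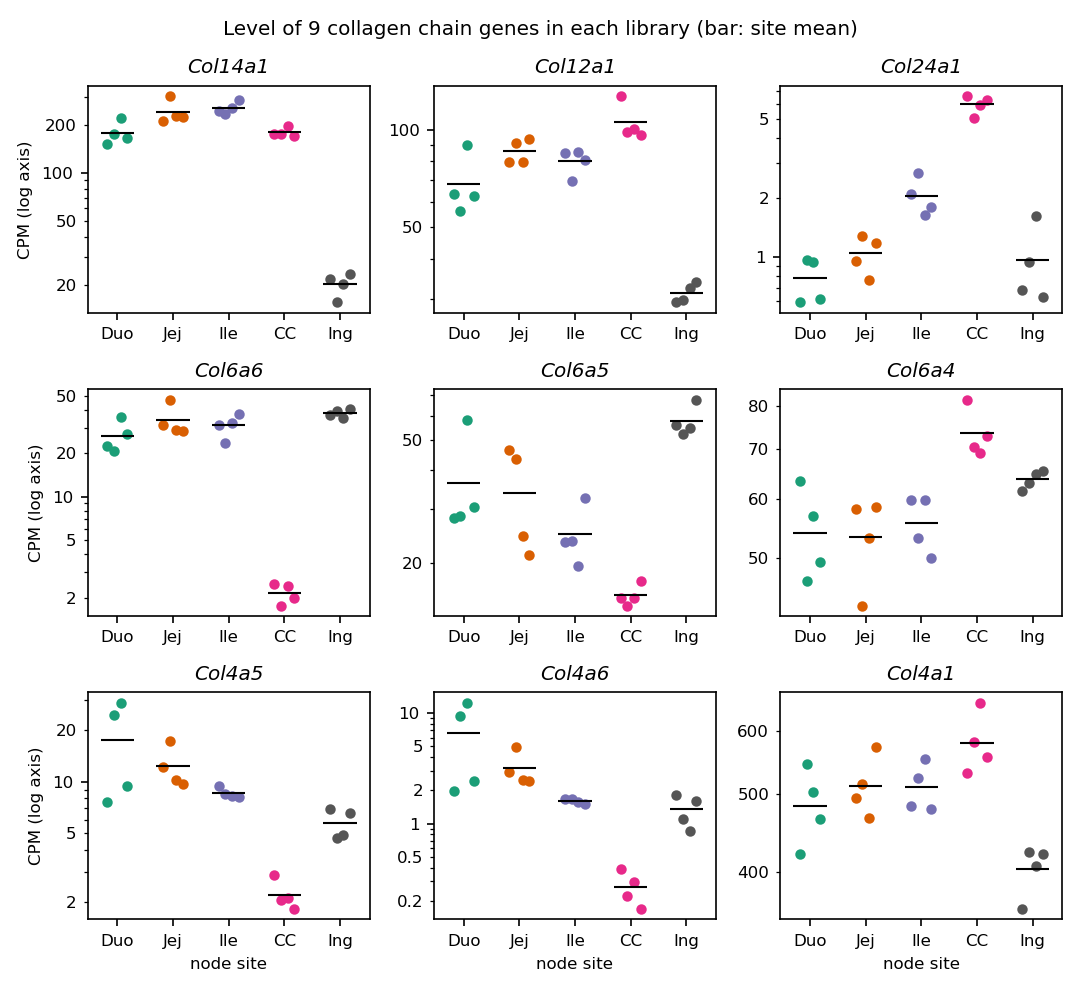
CPM (log axis) of 9 collagen chain genes in each library, by node site (Duo, duodenal; Jej, jejunal; Ile, ileal; CC, ceco-colonic; Ing, inguinal), with 4 points per site and a bar at the site mean. The inguinal libraries are lowest for Col14a1 and Col12a1, and the ceco-colonic libraries are highest for Col24a1 and lowest for Col6a6, Col4a5 and Col4a6.

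Type VI, whose beaded filaments are built from a Col6a1 and a Col6a2 chain together with Col6a3 or 1 of its relatives Col6a4, Col6a5 and Col6a6, showed unequal differences among its chains. Col6a3 was higher in gut nodes, with gut libraries from 130.3 to 175 CPM (median 141) and inguinal libraries of 125.2, 123, 104 and 112, without overlap (log2 difference 0.32 ± 0.06, SE, adjusted p = 0.000604). With counts summed plainly from the transcript tables this difference was 0.18 with an adjusted p of 0.224. Col6a2 was lower in gut nodes, at 159.6 to 237 CPM (median 202) against 231, 259, 269 and 279 in the inguinal libraries (-0.35 ± 0.08, SE, adjusted p = 0.00121). Col6a1 was at 179.6 to 259.5 CPM (median 228) against 232, 251, 270.2 and 277 and was not called (-0.17 ± 0.07, SE, adjusted p = 0.0951).

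The 3 alternative type VI chains, which lie side by side on mouse chromosome 9, had 3 different patterns. Col6a6 had 22.4, 20.7, 35.9 and 27.4 CPM in the duodenal, 31.5, 47.1, 28.9 and 28.5 in the jejunal, 31.3, 23.5, 32.6 and 37.7 in the ileal, 37.1, 39.3, 35.0 and 40.7 in the inguinal, and 2.48, 1.77, 2.43 and 1.98 in the ceco-colonic libraries. The ceco-colonic libraries were far below all 16 others. The small intestinal mean was 14.1-fold the ceco-colonic mean, with a log2 difference of 3.81 ± 0.19 (SE, adjusted p = 5.67e-11), and the ceco-colonic node was below the inguinal by -4.13 ± 0.20 (SE, adjusted p = 1.5e-11). The difference of -1.27 between the mean of gut sites and the inguinal node (adjusted p = 2.16e-07) includes that site: the duodenal node was lower by -0.52 (adjusted p = 0.0377), and the jejunal and ileal nodes were not called.

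Col6a5 fell stepwise in mean level from the inguinal to the ceco-colonic node. Its levels were 55.9, 52.4, 54.9 and 67.6 CPM in the inguinal, 28.0, 28.5, 58.0 and 30.5 in the duodenal, 46.4, 43.4, 24.4 and 21.2 in the jejunal, 23.5, 23.7, 19.6 and 32.6 in the ileal, and 15.5, 14.6, 15.5 and 17.6 in the ceco-colonic libraries. Duodenal library 3 reached the inguinal range, and the small intestinal sites overlapped each other. All 4 gut sites were called lower than the inguinal node, from -0.67 at the duodenal to -1.87 at the ceco-colonic site, and the small intestinal sites exceeded the ceco-colonic by 0.98 ± 0.21 (SE, adjusted p = 0.00218; 0.121 with the adipocyte covariate). Col6a4 went the other way between small intestinal and ceco-colonic nodes, though its site means did not rise stepwise and were lowest at the jejunal site. It had 81.7, 70.5, 69.1 and 72.9 CPM in the ceco-colonic libraries against 43.1 to 63.4 in the 12 small intestinal libraries, without overlap. The small intestinal minus ceco-colonic difference was -0.44 ± 0.08 (SE, adjusted p = 0.000467). The inguinal libraries, at 61.5, 63.1, 64.9 and 65.4 CPM, lay between, and no gut site was called against them. Summed as TPM, per length, Col6a4, Col6a5 and Col6a6 stood at 17.7, 12.8 and 6.30 TPM in the inguinal and at 19.2, 3.32 and 0.339 TPM in the ceco-colonic node, so that Col6a4 was the highest of the 3 in both and its lead was greater in the ceco-colonic node.

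The type IV genes, which encode the network of basement membranes, all 6 differed between small intestinal and ceco-colonic nodes, and they did so in opposite directions by pair. Over all 42 genes this comparison called 10 higher and 10 lower, where 8.9% and 7.74% of all genes were, with a median log2 difference of 0.00 against 0.01 over all genes. With the adipocyte marker level as a covariate 12 genes were called, 4 higher and 8 lower, and without ceco-colonic library 4 the count was 13. Markers moved with this comparison: all 5 lymphatic endothelium markers were higher in small intestinal nodes, with sums of 351 to 862 CPM against 200.2 to 312 in the ceco-colonic libraries. Of 7 blood endothelium markers 5 were higher and none lower, with sums of 957 to 1218 against 779.6 to 841 CPM. Of 6 glia and nerve markers 5 were higher and 1 lower, with sums of 3.92 to 49.5 against 4.60 to 6.28 CPM, and 2 of 8 adipocyte markers were higher, with sums of 130 to 1602 against 128 to 322 CPM. Of 8 fibroblast and reticular stroma markers 1 was higher and 3 were lower, with sums of 608 to 887 against 856 to 944 CPM. Of 5 hematopoietic markers 1 was higher and 3 were lower. Of 8 pancreatic acinar markers, held mostly by duodenal libraries 1 and 2, 5 were higher and 0 lower. The part of the endothelial, nerve, stromal and hematopoietic markers in these results was not tested. The 10 calls that held in every alternative and with every library left out were Col4a2, Col4a5, Col4a6, Col6a4, Col6a6, Col12a1, Col13a1, Col17a1, Col22a1 and Col24a1. In 8 of the 42 genes (19%) the small intestinal and the ceco-colonic libraries did not overlap, where this held for 6.18% of all genes: Col4a5, Col4a6, Col6a4, Col6a5, Col6a6, Col12a1, Col17a1 and Col24a1.

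Col4a1 and Col4a2 are the chains of the basement membrane network found in nearly all tissues. Both were higher in the mean of gut sites than in the inguinal node, and their means were highest in the ceco-colonic node. Col4a1 had 421, 545, 503 and 466 CPM in the duodenal, 495, 515, 467 and 574 in the jejunal, 483, 523, 554 and 479.7 in the ileal, 532, 582, 651 and 556 in the ceco-colonic, and 359, 423, 407 and 421 in the inguinal libraries. Duodenal library 1 met the upper inguinal libraries, and the other gut libraries were above them. The gut difference was 0.37 ± 0.07 for Col4a1 and 0.34 ± 0.08 for Col4a2 (SE, adjusted p = 0.000369 and 0.00236). Col4a2 had 243, 366, 335 and 292 CPM in the duodenal, 307, 329, 294 and 335 in the jejunal, 286, 324, 338 and 323 in the ileal, 359, 413, 424 and 384 in the ceco-colonic, and 244, 285, 267 and 255 in the inguinal libraries, with small intestinal nodes lower than the ceco-colonic by -0.33 ± 0.08 (SE, adjusted p = 0.00484). For Col4a1 that difference was -0.21 (adjusted p = 0.0434) and was lost in 14 of 20 fits without 1 library. Against the inguinal node Col4a2 was called at the ileal and ceco-colonic sites alone, and its level in duodenal library 1 was below all inguinal libraries.

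Col4a5 and Col4a6, which form a second network in some basement membranes such as those of smooth muscle, had the opposite order. Col4a5 had 7.66, 24.4, 28.8 and 9.49 CPM in the duodenal, 12.2, 17.3, 10.3 and 9.64 in the jejunal, 9.43, 8.46, 8.22 and 8.11 in the ileal, 2.85, 2.05, 2.10 and 1.82 in the ceco-colonic, and 6.89, 4.73, 4.87 and 6.58 in the inguinal libraries. Col4a6 had 1.99, 9.48, 12.4 and 2.46 CPM in the duodenal, 2.95, 4.94, 2.49 and 2.41 in the jejunal, 1.68, 1.68, 1.56 and 1.52 in the ileal, 0.385, 0.223, 0.296 and 0.170 in the ceco-colonic, and 1.83, 1.11, 0.857 and 1.59 in the inguinal libraries. Both genes were lowest in all 4 ceco-colonic libraries and peaked in duodenal libraries 2 and 3, which held 1372 and 1394 CPM of smooth muscle markers and 49.5 and 48.5 CPM of glia and nerve markers. Duodenal libraries 1 and 4 held 311 and 468 CPM of smooth muscle markers and had Col4a5 and Col4a6 levels within or near those of the jejunal and ileal libraries.

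Small intestinal nodes exceeded the ceco-colonic node by 2.48 ± 0.30 for Col4a5 and 3.60 ± 0.46 for Col4a6 on the log2 scale (SE, adjusted p = 4.84e-06 and 1.09e-05). Against the inguinal node, Col4a5 was higher at the duodenal (1.61) and jejunal (1.10) sites and lower at the ceco-colonic (-1.39), and Col4a6 likewise at 2.30, 1.25 and -2.33, each called. The ileal site was called for neither gene. The duodenal differences rested on libraries 2 and 3: without them they were 0.58 for Col4a5 and 0.73 for Col4a6 (adjusted p = 0.0621 and 0.104). With the smooth muscle covariate they were 1.15 and 1.55 and still called (adjusted p = 0.00011 and 0.000277). The jejunal differences were 0.17 and -0.14 with the adipocyte covariate (adjusted p = 0.794 and 0.887), while the ceco-colonic differences were called in each of these fits. The difference among the 4 gut sites had adjusted p-values of 1.7e-05 and 1.23e-05, and in all alternatives and fits without 1 library these did not exceed 0.000168 for Col4a5 and 0.000687 for Col4a6.

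Col4a3 and Col4a4, which join with Col4a5 in a further kind of molecule known from kidney, were near 1 CPM. Col4a3 lay between 0.195 and 1.93 CPM and Col4a4 between 0.274 and 4.35 CPM in the gut libraries. Both were higher in small intestinal than in ceco-colonic nodes, by 1.26 and 1.92 (adjusted p = 0.0208 and 0.0079), and both calls were lost with the adipocyte covariate (adjusted p = 0.288 and 0.388). For Col4a3 the call was also lost without ceco-colonic library 1, 2 or 4, and without duodenal libraries 2 and 3 together (adjusted p = 0.0578).

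Several genes of low abundance were highest in the duodenal libraries 2 and 3, those with the highest sums of smooth muscle markers (1372 and 1394 CPM) and of glia and nerve markers (49.5 and 48.5 CPM, against 3.92 to 26.9 in the other 18 libraries). Col19a1 (type XIX, a fibril-associated collagen known from smooth muscle and nerve) had 0.133, 2.71, 1.52 and 0.457 CPM in the duodenal libraries and 0.0452 to 0.199 CPM in all others. Its difference among gut sites (adjusted p = 3.22e-05) was lost with the smooth muscle marker level as a covariate (adjusted p = 0.0859). Col28a1 (type XXVIII, known from peripheral nerve) had 1.98, 9.39, 10.2 and 4.33 CPM in the duodenal libraries and 0.939 to 5.31 elsewhere. Its difference among gut sites (adjusted p = 0.027) was lost without the duodenal libraries 2 and 3 (adjusted p = 0.745).

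Col8a1, a network chain made by vessel wall cells, had 0.634, 3.69, 3.29 and 1.79 CPM in the duodenal libraries and 0.674 to 1.74 CPM elsewhere. Its difference among gut sites (adjusted p = 0.0183) was lost without the same pair of libraries (adjusted p = 0.221) and with the smooth muscle covariate (adjusted p = 0.498). Col11a1 (type XI) had 1.08, 3.66, 4.04 and 1.44 CPM in the duodenal, 0.464, 1.72, 0.288 and 0.527 in the jejunal, 0.730, 0.215, 0.0855 and 0.733 in the ileal, 0.150, 0.0987, 0.170 and 0.0960 in the ceco-colonic, and 0.179, 0.324, 0.0859 and 0.141 in the inguinal libraries. The duodenal libraries were all above the ceco-colonic and inguinal ones. Its difference among gut sites was called in all fits (adjusted p = 0.00035, at most 0.0132). Its difference of 1.61 between gut and inguinal nodes (adjusted p = 0.0364) was not called without the duodenal libraries 2 and 3, where it was 1.35 (adjusted p = 0.0668), or with limma-voom, where it was 1.43 (adjusted p = 0.157). With the adipocyte covariate it was 0.38 (adjusted p = 0.694). It was also not called in 5 of 20 fits without 1 library, where it stayed between 1.37 and 1.58. The small intestinal minus ceco-colonic difference of 2.85 (adjusted p = 0.00211) became 1.59 with the adipocyte covariate (adjusted p = 0.111).

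Without the duodenal libraries 2 and 3, the count of called genes among the 4 gut sites was 18 in place of 23, and without the duodenal libraries 1 and 2 it was also 18. Col7a1, the chain of the anchoring fibrils below epithelia, was highest in duodenal library 1, at 9.87 CPM, with 4.78, 2.88 and 2.40 in the other duodenal libraries and 1.93 to 3.53 elsewhere. Duodenal libraries 1 and 2 hold the pancreatic acinar RNA, and without these 2 the adjusted p of Col7a1 among gut sites was 0.866 in place of 0.0312.

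**Figure D4:**
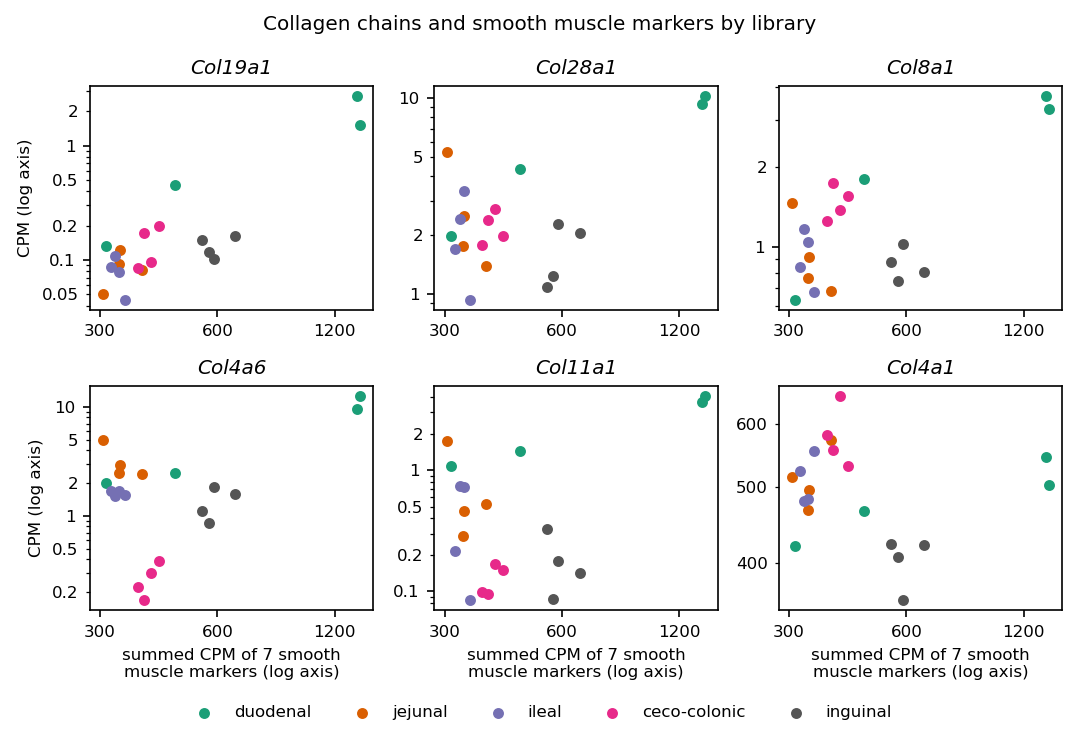
CPM of 6 collagen chain genes (y axis, log) against the summed CPM of 7 smooth muscle markers (x axis, log) in the 20 libraries, coloured by node site. Duodenal libraries 2 and 3, at 1372 and 1394 CPM of markers, hold the highest Col19a1, Col28a1, Col8a1, Col4a6 and Col11a1, while the highest Col4a1, 651 CPM, is in a ceco-colonic library.

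The multiplexins Col15a1 and Col18a1, proteoglycan collagens of basement membrane zones, are described gene by gene, and the difference between them was not tested. Col18a1, the source of endostatin, had gut levels from 40.3 to 106 CPM (median 61.0) and inguinal levels of 32.4, 37.5, 33.7 and 38.8, without overlap (log2 difference 0.83 ± 0.17, SE, adjusted p = 0.000862). Its highest levels, 106 and 104 CPM, were again in duodenal libraries 2 and 3, and it was called at all 4 gut sites. Col15a1 was at 74.4 to 124 CPM in gut libraries (median 95.2) and 88.0, 126, 115 and 107 in inguinal libraries and was not called between them (-0.22 ± 0.09, SE, adjusted p = 0.0649). The ileal node, with 80.7, 74.8, 74.4 and 80.8 CPM, was lower than the inguinal by -0.49 (adjusted p = 0.00247). With the adipocyte covariate, Col15a1 was no longer called among the 5 sites (adjusted p = 0.176 in place of 0.0072). The same held among the 4 gut sites (0.203 in place of 0.018).

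The transmembrane collagens, which span the cell membrane and shed their ectodomains, had 2 of 4 genes lower and none higher between the mean of gut sites and the inguinal node. Col23a1 (type XXIII) had gut levels from 14.5 to 19.6 CPM (median 16.6) and inguinal levels of 21.3, 25.2, 22.4 and 26.3, without overlap (-0.50 ± 0.07, SE, adjusted p = 2.18e-05). Col13a1 (type XIII, known from neuromuscular junctions) had 4.50, 5.10, 5.20 and 5.21 CPM in the inguinal libraries and 2.70 to 5.04 (median 3.89) in the gut libraries (-0.43 ± 0.07, SE, adjusted p = 6.8e-05). Its lowest levels were jejunal, 3.02, 2.79, 2.70 and 3.36 CPM. Col17a1 (type XVII, the hemidesmosome collagen of epithelia) had 8.20, 8.27, 6.87 and 8.22 CPM in the duodenal, 5.84, 5.85, 5.20 and 5.60 in the jejunal, 4.22, 4.36, 5.28 and 3.95 in the ileal, 10.8, 8.53, 9.84 and 12.3 in the ceco-colonic, and 6.57, 5.71, 6.87 and 5.63 in the inguinal libraries. The ceco-colonic libraries were the highest and did not overlap any other. It was higher than the inguinal node at the duodenal (0.35) and ceco-colonic (0.74) sites and lower at the ileal (-0.48), though the duodenal difference was 0.28 without duodenal libraries 1 and 2 (adjusted p = 0.191) and the ileal one had an adjusted p of 0.0513 with the adipocyte covariate. Small intestinal nodes were below the ceco-colonic by -0.83 ± 0.09 (SE, adjusted p = 8.31e-07). Keratinocyte markers were low throughout, at 2.07 to 5.51 summed CPM of 5 genes.

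Col8a2, the partner of Col8a1, was lower in gut nodes, at 1.93 to 4.47 CPM (median 2.60) against 5.28, 4.66, 3.57 and 3.56 in the inguinal libraries (-0.59 ± 0.17, SE, adjusted p = 0.011). The difference was -0.48 without inguinal library 1 (adjusted p = 0.0768) and -0.52 with the adipocyte covariate (adjusted p = 0.0581). Col10a1, the collagen of growth plate cartilage, lay at 0.0607 to 0.188 CPM in all libraries and was not called. Col25a1, a collagen of neurons, was at 0.187 to 0.518 CPM. Its small intestinal minus ceco-colonic difference of 0.57 (adjusted p = 0.0293) was lost without ceco-colonic library 2 or 4. Col26a1 was at 5.51 to 9.15 CPM in all libraries and was called higher in the ceco-colonic than in the inguinal node alone among these comparisons (0.39, adjusted p = 0.0347).

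Chains that assemble with one another or belong to 1 type were then compared as log2 ratios within each library, which do not depend on library scaling. Of 10 such pairs, each tested in 2 contrasts with an exact two-sided permutation test over libraries and adjusted over the 20 tests, the ratio of Col5a1 to Col5a2 was lower in gut than in inguinal nodes, with a mean of -0.34 against 0.14 (difference -0.48, adjusted p = 0.00138). The ratio of Col6a3 to Col6a1 was higher in gut nodes, -0.66 against -1.15 (difference 0.49, adjusted p = 0.00138). This ratio rests on the gene table and was not computed from plain transcript sums. With those sums the gut difference of Col6a3 was 0.18 and not called (adjusted p = 0.224, edgeR). The ratio of Col6a1 to Col6a2 was also higher, 0.18 against -0.01 (difference 0.19, adjusted p = 0.00138), with an SD of 0.02 to 0.04 within each site. For these 3 pairs the gut and inguinal libraries did not overlap at all, and the raw p of 0.000206 is the smallest that the 4845 arrangements can give. In both contrasts the permutation set 1 site against several pooled sites and shuffled libraries without regard to site. It thus treated the pooled libraries as exchangeable although sites can differ, and its p-values do not measure the spread between sites. The ratio of the 2 type I chains ran from -0.62 to -0.22 over the 20 libraries and gave a difference of -0.11 (adjusted p = 0.198, exact permutation test). That of Col8a1 to Col8a2 was higher in gut nodes by 1.14, with means of -1.16 against -2.3 (adjusted p = 0.0454, same test). Its SD was 1.19 within the duodenal libraries.

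Between small intestinal and ceco-colonic nodes, the ratio of Col4a5 to Col4a6 was lower by -1.08 in the small intestinal nodes, with means of 2 against 3.09 (adjusted p = 0.00275, exact permutation test). The site means rose from 1.62 at the duodenal through 1.98 and 2.41 to 3.09 at the ceco-colonic site, so the levels of the 2 genes changed unequally. The ratio of Col4a1 to Col4a2, whose annotated 5′ ends overlap, kept between 0.49 and 0.79 in all 20 libraries. Its SD was 0.086 on the log2 scale, against 0.208 and 0.232 for the genes by themselves. The SD was also 0.086 for Col6a1 to Col6a2, and it was 0.73 for Col4a3 to Col4a4, the remaining type IV pair. Whether gene position bears on these ratios was not tested. The ratio of Col4a1 to Col4a2 was higher by 0.13 in small intestinal than in ceco-colonic nodes (adjusted p = 0.0251, exact permutation test). By the same test the ratio of Col6a1 to Col6a2 was higher there by 0.07 (adjusted p = 0.00659). That of Col11a1 to Col11a2 was higher by 2.84, with means of -3.06 against -5.91 (adjusted p = 0.0201). All ratio tests not given had adjusted p-values of 0.187 or more.

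**Figure D5:**
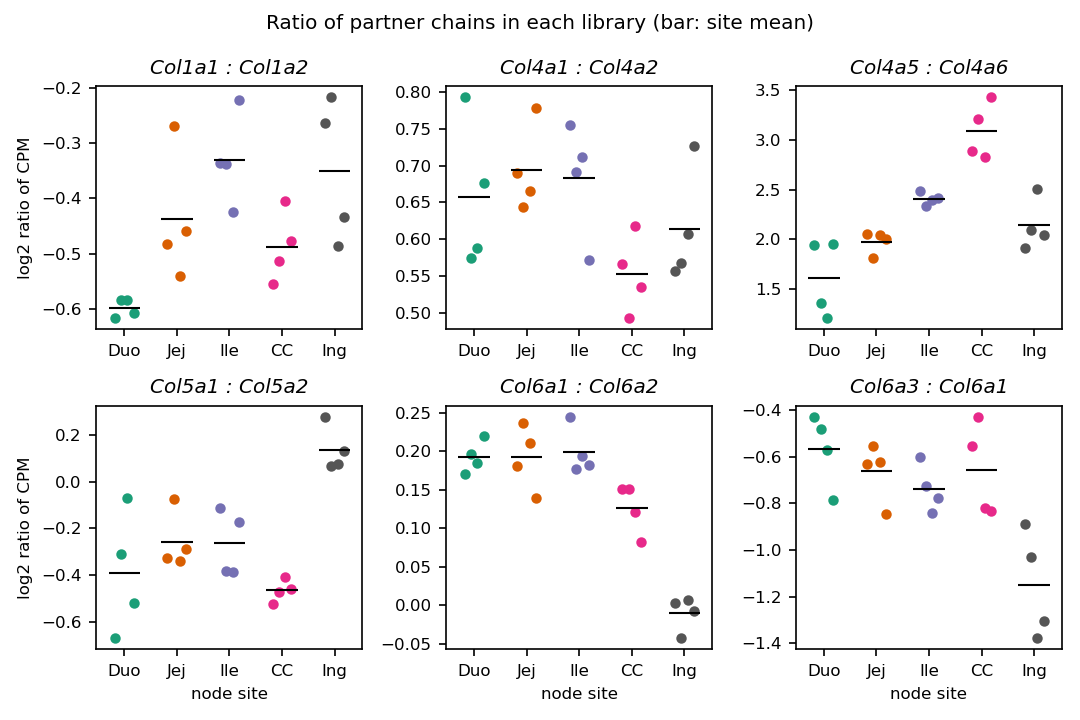
Log2 ratio of the CPM of 6 pairs of chain genes in each library (y axis; each panel has its own range), by node site, with 4 points per site and a bar at the site mean. Col5a1 to Col5a2 is above 0 in the 4 inguinal libraries alone, Col6a1 to Col6a2 is lowest there, and Col4a5 to Col4a6 is highest, at a mean of 3.09, in the ceco-colonic libraries.

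Between pairs of gut sites, the duodenal and jejunal nodes differed in 4 of the 42 genes, all higher in the duodenal (Col9a2, Col13a1, Col17a1 and Col19a1), where 2.83% of all genes were called, 1.29% higher and 1.54% lower. Jejunal and ileal nodes differed in none by edgeR, where 0.068% of all genes were called (0.0204% higher, 0.0476% lower); 4 had an unadjusted p under 0.05, DESeq2 called 1 and limma-voom called 0. Duodenal against ileal gave 10 higher and 3 lower, where 14.6% of all genes were called (6.58% higher, 8.03% lower). The 3 that were lower in the duodenal node were Col5a3, Col14a1 and Col24a1. Duodenal against ceco-colonic gave 12 and 8, where 16.4% were called (8.24% and 8.17%), and jejunal against ceco-colonic 8 and 6, where 12.2% were (7.14% and 5.06%). Ileal against ceco-colonic gave 5 higher (Col3a1, Col4a5, Col4a6, Col6a6 and Col14a1) and 8 lower, where 12.8% of all genes were called (7.43% and 5.32%). In order of site means along the gut, 7 genes fell at each step from duodenal to ceco-colonic (Col4a3, Col4a4, Col4a5, Col4a6, Col6a5, Col7a1 and Col11a1), 7 rose at each step (Col4a2, Col6a1, Col6a2, Col11a2, Col22a1, Col24a1 and Col26a1), and 28 did neither. This order is of means and was not tested, and Col6a1, Col6a2, Col11a2 and Col26a1 were not called among the 4 gut sites.

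Genes that make, cross-link, bind or accompany collagen were examined in fixed lists between gut and inguinal nodes. Of 19 folding and modification genes, 6 were higher and 1 lower, with a list median of 0.08. P3h1, a prolyl 3-hydroxylase, was at 31.4 ± 1.84 CPM in gut and 22.3 ± 1.04 in inguinal nodes (SD, log2 difference 0.49, adjusted p = 3.75e-07), Plod2, a lysyl hydroxylase, was higher by 0.65 (adjusted p = 5.69e-07), and P3h2 was lower by -0.50 (adjusted p = 5.54e-08). Serpinh1, the collagen chaperone, was higher by 0.38 (adjusted p = 0.000972). P4ha3, a prolyl 4-hydroxylase chain, had means of 0.682, 0.627 and 1.25 CPM in the small intestinal nodes, 5.72 in the ceco-colonic and 0.580 in the inguinal node, with a small intestinal minus ceco-colonic difference of -2.82 (adjusted p = 5.51e-10).

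Of 6 cross-linking genes, 3 were higher and none lower. Loxl1, a lysyl oxidase, rose most, with 35.7 to 43.7 CPM as gut site means against 10 in the inguinal node (log2 difference 2.02 ± 0.17, SE, adjusted p = 1.09e-08), followed by Loxl2 (0.69) and the peroxidase Pxdn (0.46), which links type IV. Of 10 collagen receptors, 5 were higher and 1 lower: Mrc2, an endocytic collagen receptor, was higher by 1.29 ± 0.14 (SE, adjusted p = 3.72e-07), the kinase receptors Ddr1 and Ddr2 by 0.39 and 0.43, and Itga2 was lower by -0.20 (adjusted p = 0.0334). Of 13 secretion and cleavage genes, 2 were higher and 3 lower, among them the procollagen protease Adamts14 (-0.92, adjusted p = 2.6e-07). Of 15 basement membrane partners of type IV, 4 were higher and 1 lower: the laminin chain Lamb1 by 0.58, nidogen Nid1 by 0.56 and agrin (Agrn) by 0.55 were higher, and Nid2 by -0.95 was lower (adjusted p = 2.85e-06). Counts for these lists stand beside 13.4% higher and 12.9% lower over all genes.

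Between small intestinal and ceco-colonic nodes, 4 of the 6 cross-linking genes were higher in the small intestinal nodes and none lower, with a list median of 0.69. These were Pxdn (0.77), Loxl4 (0.74), the lysyl oxidase Lox (0.72) and Loxl2 (0.67). Of the 15 basement membrane partners 4 were higher, among them the laminin chains Lamc3 (1.33) and Lama2 (0.87), and 2 were lower, among them the laminin chain Lama3 (-0.60). Folding genes had 4 higher and 3 lower of 19, secretion and cleavage genes 2 and 2 of 13, and receptors 0 and 2 of 10, beside 8.9% higher and 7.74% lower over all genes.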

How the data were processed

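Bulk RNA-seq of polyadenylated RNA from whole lymph nodes was analysed in 20 libraries, 4 from each of 5 node sites, grouped by their titles. The submitters' processing notes name kallisto, edgeR and limma and the builds mm10 and GRCm39, without versions or roles. The authors deposited a gene table of estimated counts and, per library, estimated counts and TPM for 149419 transcripts; strand handling: not given in the sources used here. Estimated counts were rounded and fitted with edgeR 4.0.16 (R 4.3.3): TMM scaling, a filter on low counts (minimum 10, total 15), quasi-likelihood tests over 5 sites without a replicate block. CPM are scaled by TMM; deposited TPM were summed per gene. Gene values differed from plain sums of transcript counts by a median of 0.0439 and at most 1.56 on the log2 scale over the 42 genes. Members, lists and tests were chosen with earlier results of these data known. Values of single libraries, or the range of a group of libraries, go to 29 genes. These are 13 main chains, the 6 highest and 6 lowest called between gut and inguinal nodes, the 6 smallest p among gut sites, and the 4 highest and 4 lowest between small intestinal and ceco-colonic nodes. Others were named after their values were seen. On simulated data with 100 genes changed 1.5-fold and 100 changed 2-fold, 46% and 65% were recovered between gut and inguinal nodes (28985 genes), with 6.72% of calls false. In the data 26.3% of all genes were called in this comparison, a far greater share than was changed in the simulation. The simulated rates therefore do not give the power of the reported tests. Alternatives were DESeq2 1.42.0, limma-voom (limma 3.58.1), other scaling, no filter, plain transcript sums, marker covariates, a replicate block and libraries left out.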

Additional observations from a re-analysis of the deposited data

Results flagged for a closer look

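In 145 groups of 4 libraries (29 genes at 5 sites), 7 held a library whose distance from its nearest neighbour took up most of the range of its group by Dixon's 95% limit. Chance alone gives such a library in about 5% of groups, and the count of 7 is close to that share. Col3a1 was at 987 CPM in ceco-colonic library 2, against 892 to 906 in the other 3. Col11a1 was at 1.72 CPM in jejunal library 2, against 0.288 to 0.527. Col12a1 was at 127 CPM in ceco-colonic library 1, against 96.4 to 101. Col6a6 was at 47.1 CPM in jejunal library 2, against 28.5 to 31.5. Col6a5 was at 58.0 CPM in duodenal library 3, against 28.0 to 30.5. Col13a1 was low in inguinal library 1, at 4.50 CPM against 5.10 to 5.21, and Col17a1 was low in duodenal library 3, at 6.87 CPM against 8.20 to 8.27.

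In 3 genes the difference from the inguinal node took opposite directions at different gut sites, with the difference itself tested by edgeR among the 4 gut sites. Col4a5 was higher at the duodenal and jejunal and lower at the ceco-colonic site (adjusted p = 1.7e-05), Col4a6 likewise (adjusted p = 1.23e-05), and Col17a1 was higher at the duodenal and ceco-colonic and lower at the ileal site (adjusted p = 7.94e-07). The duodenal differences of Col4a5 and Col4a6 rested on duodenal libraries 2 and 3, which hold the most smooth muscle and nerve markers: without them they were 0.58 and 0.73 (adjusted p = 0.0621 and 0.104). The jejunal and ceco-colonic calls of both genes held without these libraries.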

How the results depend on the processing

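The counts of called collagen genes stayed within 1.5 times the main count in all alternatives but these: 20 genes between small intestinal and ceco-colonic nodes became 12 with the adipocyte marker level as a covariate, and 13 without ceco-colonic replicate 4. The cause was not tested. With 1 library left out at a time, the count was 28 to 34 among 5 sites, 16 to 25 among gut sites, 20 to 26 between gut and inguinal nodes, 13 to 21 between small intestinal and ceco-colonic nodes, 70 to 89 over the 4 sites against inguinal (89 with all) and 50 to 70 over the 6 pairs of gut sites (64 with all). No named gene called between gut and inguinal or between small intestinal and ceco-colonic nodes reversed its direction in the alternatives run. At a single site, the called jejunal difference of Col4a6 from the inguinal node, 1.25, was -0.14 with the adipocyte covariate (adjusted p = 0.887). With the replicate number as a block these 6 counts were 33, 25, 24, 21, 93 and 69, against 33, 23, 23, 20, 89 and 64 without it. Same-numbered libraries at different sites correlated from -0.086 to 0.357 (40 pairs, median 0.075, 13 over 0.1) and others from -0.302 to 0.195 (120 pairs, median -0.021, 9 over 0.1), and 12 of 20 libraries correlated best with their own number. This is a hint from the data that the numbers may mark a shared factor; the labels state none and not every same-numbered pair was over 0.1. Without the duodenal libraries 2 and 3, chosen after seeing the data, the counts were 28, 18, 24, 18, 79 and 51. The call held in every alternative and every fit without 1 library for 23 of 33 genes among 5 sites, 11 of 23 among gut sites, 18 of 23 between gut and inguinal and 10 of 20 between small intestinal and ceco-colonic nodes. Counting depth limits Col10a1 most, at 0.0607 to 0.188 CPM.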

Other observations

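Col4a5 had 2 main annotated transcripts, and their shares of the TPM of the gene differed in level between sites. Col4a5-202 held 75.7% ± 16.1 in the ceco-colonic and 73.1% ± 10.3 in the inguinal libraries, against 51.5% ± 10.5 in the duodenal, 56.6% ± 10 in the jejunal and 56.1% ± 5.48 in the ileal libraries (SD, n = 4 each). The share of Col4a5-201 was 22.4% ± 18.9 in the ceco-colonic libraries and 41.5% ± 6.64 in the ileal. These shares come from estimated assignments of reads among near-identical transcripts, and the difference was not tested.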
